A study of Mus musculus with 203 samples.

Results

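Cytotoxic lymphocytes kill infected or altered cells with the contents of secretory granules, and the transcripts described here are 10 genes that mark or arm them, namely Cd8a, Cd8b1, Gzma, Gzmb, Gzmk, Prf1, Nkg7, Klrd1, Ncr1 and Eomes. They were chosen by name and by no rule on a measured value, but with earlier results of these data known. All 10 were found among the 43346 gene identifiers of the count table. Their levels were followed by RNA-seq in the airway and parenchyma of lungs from female Balb/C mice, in 43 libraries at 3 weeks and 160 at 11 weeks, which fall into 20 groups of week, tissue and exposure.

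Killing by these cells needs several parts that are encoded by different genes. Cd8a and Cd8b1 encode the chains of the CD8 co-receptor, which binds MHC class I on the target cell, and Cd8a is also made by a subset of dendritic cells. Prf1 encodes perforin, which forms pores in the target membrane, and Gzma, Gzmb and Gzmk encode granzymes, serine proteases that enter through them. Granzyme B activates caspases. Nkg7 encodes a membrane protein of the granules. Klrd1 encodes CD94, which pairs with NKG2 receptors on natural killer (NK) cells and some CD8 T cells, Ncr1 encodes the activating receptor NKp46 of NK cells and related innate lymphocytes, and Eomes encodes a T-box transcription factor of NK cells and memory CD8 T cells. In the lung, both NK cells and CD8 T cells are resident in the tissue and are also carried through its vessels by the blood.

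At 3 weeks, mice had received house dust mite extract (HDM, 25 µg in 30 µL) or phosphate buffered saline (PBS) intranasally on 5 days per week. This gave 11 airway and 12 parenchyma libraries for PBS and 10 of each tissue for HDM. At 11 weeks, mice had received HDM or PBS on the same schedule and then 3 times per week in weeks 4 to 11. Over those 8 weeks they breathed normal air (AIR) or cigarette smoke (CS, 2 times per day, 5 days per week), and separate groups were given dexamethasone (DEX), a synthetic glucocorticoid, during week 11. The 8 exposures at 11 weeks are written PBS.AIR, HDM.AIR, PBS.CS and HDM.CS, each alone and with .DEX, with 10 libraries per exposure and tissue. The labels give all mice an age of 18 to 20 weeks. HDM is used as a model of asthma, CS as a model of chronic obstructive pulmonary disease and HDM with CS as a model of their overlap. Airway and parenchyma were separated by blunt dissection, so each holds some of the other, and each library is a mixture of all cells in the tissue. The labels do not say which airway and parenchyma libraries came from the same mouse.

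Total counts per library ranged from 13003154 to 40240733, with a median of 28090684. The dissection was visible in marker genes. The summed level of 4 ciliated cell genes had a median of 360 CPM (counts scaled to the size of the library) in airway and 142.05 CPM in parenchyma libraries, and that of 4 smooth muscle genes 411 and 117.6 CPM. On these genes 3 airway libraries lay nearer to parenchyma, 2 of the HDM group at 3 weeks and 1 of the HDM.AIR group. In 7 libraries the summed level of 5 thymocyte genes, which mark immature T cells of the thymus, was above 2 CPM. Of these 7, 3 were airway libraries of the PBS.AIR group, and HDM libraries at 3 weeks were among the others. The highest sum of all, 8.37 CPM, was in library X102 of PBS parenchyma at 3 weeks. In that control group the thymocyte gene Rag1 reached 4.62 CPM. In the HDM groups at 3 weeks Rag1 reached at most 0.0839 CPM in airway and 0.265 CPM in parenchyma. Dntt, another of the 5, reached 2.36 and 3.76 CPM there. Its medians with HDM were 0.777 and 1.03 CPM, beside 0.23 and 0.213 CPM with PBS. Whether the 7 libraries held thymus was not tested. Results that changed without either set of libraries are given with the value without them. All 10 genes passed the filter on low counts at 3 weeks, at 11 weeks and over all libraries.

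The genes lie on 6 mouse chromosomes. On chromosome 6 (mm10), Cd8b1 (chr6:71322788-71337494) and Cd8a (chr6:71373427-71379173) are neighbours on the plus strand, and Klrd1 lies further along (chr6:129591782-129598775, plus strand). Gzma (chr13:113093825-113100981) and Gzmk (chr13:113171608-113225908) are neighbours on the minus strand of chromosome 13. Ncr1 (chr7:4337724-4345164) and Nkg7 (chr7:43437073-43438249) lie on the plus strand of chromosome 7, Gzmb (chr14:56258838-56262260) on the minus strand of chromosome 14, Prf1 (chr10:61297833-61304680) on the plus strand of chromosome 10 and Eomes (chr9:118478212-118486132) on the plus strand of chromosome 9.

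RefSeq promoter windows (GRCm38.p6, 250 bases before to 50 after the transcription start) were matched for 8 of the 10 genes. Because T-box factors such as Eomes and RUNX factors are known regulators of cytotoxic genes, the windows were searched on both strands for the T-box half-site AGGTGT (reverse complement ACACCT) and the RUNX site TGTGGT (reverse complement ACCACA), which can overlap through a shared TGT. The T-box half-site was present in the windows of 4 genes, Gzma, Gzmk, Nkg7 and Prf1, and in 13.7% of all 32851 RefSeq windows. The RUNX site was present in 5 genes, Gzma, Gzmb, Ncr1, Nkg7 and Prf1, and in 16.8% of all windows. Both were present in Gzma, Nkg7 and Prf1 and in 2.85% of all windows, and neither was found in Cd8a or Eomes. The upstream parts of 4 windows are shown for the granule protease and pore genes Gzma and Prf1, for Ncr1, the gene most like Gzma among libraries of the same group, and for Gzmk, which was least like any of the others. Capitals mark the matches, and each sequence is written 5′ to 3′ on the gene's strand and ends at the base before the start. They are Gzma at chr13:113100982-113101231, Prf1 at chr10:61297586-61297835, Ncr1 at chr7:4337465-4337714 and Gzmk at chr13:113180966-113181215.
Gzma: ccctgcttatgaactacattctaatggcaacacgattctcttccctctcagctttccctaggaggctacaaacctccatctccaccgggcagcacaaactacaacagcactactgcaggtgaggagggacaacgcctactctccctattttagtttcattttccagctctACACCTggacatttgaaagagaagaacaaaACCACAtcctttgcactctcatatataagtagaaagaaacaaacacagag
Prf1: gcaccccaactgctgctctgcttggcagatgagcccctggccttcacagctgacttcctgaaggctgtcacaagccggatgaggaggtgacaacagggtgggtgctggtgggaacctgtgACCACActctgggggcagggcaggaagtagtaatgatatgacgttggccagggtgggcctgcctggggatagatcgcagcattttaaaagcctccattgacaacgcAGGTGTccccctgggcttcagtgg
Ncr1: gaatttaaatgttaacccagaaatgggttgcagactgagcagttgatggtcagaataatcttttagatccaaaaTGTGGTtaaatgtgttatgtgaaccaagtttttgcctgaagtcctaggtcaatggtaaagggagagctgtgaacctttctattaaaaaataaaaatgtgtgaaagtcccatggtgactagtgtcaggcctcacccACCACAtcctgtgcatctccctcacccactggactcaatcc
Gzmk: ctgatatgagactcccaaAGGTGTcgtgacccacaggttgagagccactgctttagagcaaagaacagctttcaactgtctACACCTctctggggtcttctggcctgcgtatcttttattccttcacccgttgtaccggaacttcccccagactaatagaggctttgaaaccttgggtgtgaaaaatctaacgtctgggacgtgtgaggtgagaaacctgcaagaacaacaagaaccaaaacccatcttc
In Gzma the T-box match begins 80 bases and the RUNX match 50 bases before the start, and in Prf1 they begin 24 and 130 bases before it. Ncr1 holds 2 RUNX matches, the nearer of which begins 41 bases before the start, and Gzmk 2 T-box matches, the farther of which begins 232 bases before it. The Gzmk start used by RefSeq lies inside the span of the gene in the annotation used for the counts. A match is a stretch of letters and was not tested for binding.

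Unexposed lung held far more granzyme A transcript than any other of the 10, once counts were divided by the length of the exons. In PBS parenchyma at 3 weeks the median of Gzma was 149.3 CPM per kilobase. Ncr1 followed at 22.9, Nkg7 at 18 and Klrd1 at 16.8 CPM per kilobase, then Gzmb at 4.69, Cd8b1 at 4.06, Prf1 at 3.37 and Cd8a at 2.42. Eomes at 1.03 and Gzmk at 0.741 CPM per kilobase were lowest. Parenchyma of the PBS.AIR group at 11 weeks began and ended with the same genes, with Gzma at 79.3, Ncr1 at 16.6 and Nkg7 at 16.3 CPM per kilobase at the top and Gzmk at 0.315 at the bottom.

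**Figure D1:**
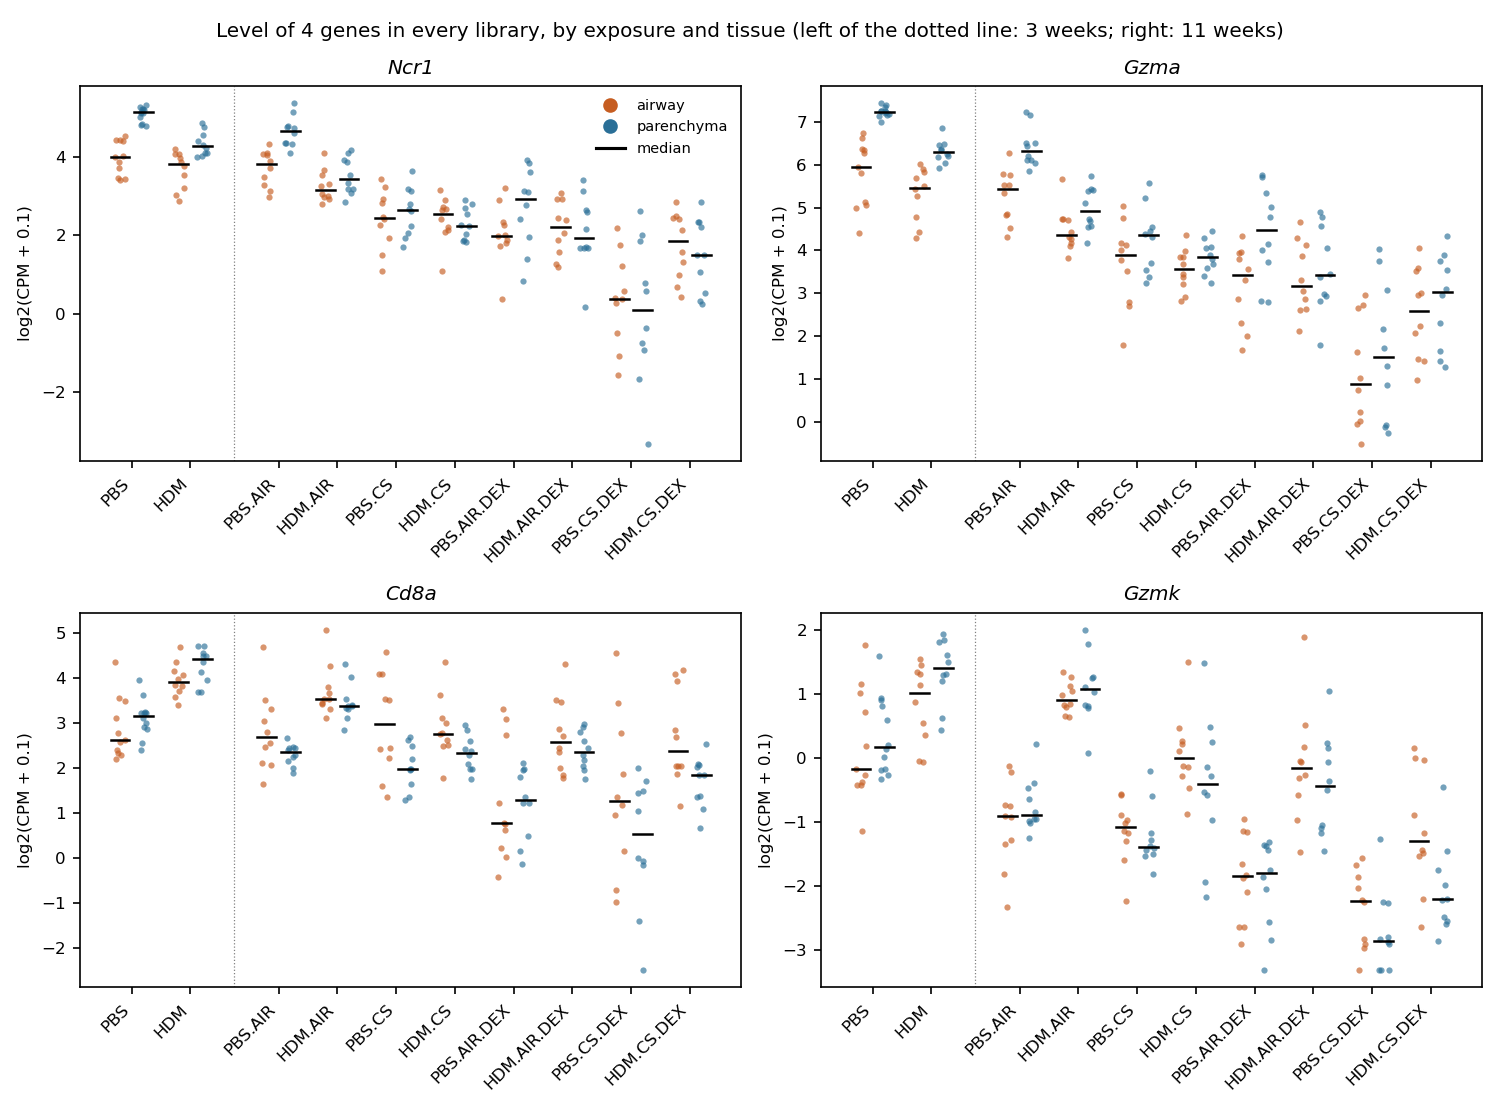
Levels of Ncr1, Gzma, Cd8a and Gzmk in each library as log2(CPM + 0.1), by group, with airway in orange, parenchyma in blue, a bar at the median of each group and a dotted line between 3 and 11 weeks. Ncr1 and Gzma were highest in PBS parenchyma and low with CS or DEX, Cd8a and Gzmk were highest with HDM, and every gene was lowest at the median in the PBS.CS.DEX groups, apart from Cd8a in airway, whose lowest median was in PBS.AIR.DEX.

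Among control mice the NK receptor genes and granzyme A were lower in airway than in parenchyma, and the CD8 chains were not shown to differ. At 3 weeks Gzma was 126.4 to 173.1 CPM (median 150.2) in 12 PBS parenchyma libraries and 21 to 106.9 CPM (median 61.7) in 11 PBS airway libraries. No airway library reached the lowest parenchyma library, and the log2 fold change (log2FC) was -1.43 ± 0.20 (standard error, SE, adjusted p = 2.0e-07). Klrd1 (log2FC -1.15 ± 0.12, adjusted p = 6.7e-10) and Ncr1 (log2FC -1.12 ± 0.13, adjusted p = 5.9e-09) were also apart in all libraries. Here and below, the share of all genes without overlap was counted only where it is given. These 3 genes were called lower, where a call needs an adjusted p under 0.05 and a fold change past 2 in either direction (log2FC 1 or more, or -1 or less), against 1.91% of all genes tested. Another 4, Gzmb, Prf1, Nkg7 and Eomes, passed the test alone (adjusted p under 0.05) with log2FC between -0.99 and -0.62. Cd8a gave a log2FC of -0.19 (95% interval -0.62 to 0.24), Cd8b1 -0.21 (-0.66 to 0.25) and Gzmk -0.20 (-0.82 to 0.42). A lower transcript level in bulk tissue can come from fewer cells or from less RNA per cell, and these cannot be told apart here.

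The same contrast at 11 weeks, PBS.AIR airway less PBS.AIR parenchyma, called only Gzma lower among the 10, against 2.71% of all genes. Its levels were 19.7 to 77 CPM (median 43.1) in airway and 57.7 to 150.8 CPM (median 79.8) in parenchyma, and 9 of the 10 airway libraries lay below every parenchyma library. The log2FC was -1.11 ± 0.28 (adjusted p = 3.0e-04), or -0.83 without the libraries with thymocyte genes, which ends the call. Gzmb, Prf1, Nkg7, Klrd1 and Ncr1 passed the test with log2FC between -0.98 and -0.49. Cd8a gave 0.55 (95% interval -0.19 to 1.28), with 1 airway library at 25.7 CPM beside an airway median of 6.31 CPM.

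Exposure to HDM for 3 weeks asked what allergic sensitisation does to these genes, and they did not move together. In airway, Cd8a ranged from 4.51 to 20.3 CPM (median 6.06) with PBS and from 10.5 to 25.6 CPM (median 15) with HDM. The groups overlapped through a PBS library at 20.3 CPM, and 2 of the 10 HDM libraries exceeded every PBS library (log2FC 1.05 ± 0.20, adjusted p = 9.0e-06). Gzmb ranged from 1.76 to 6.41 CPM (median 3.78) with PBS and from 3.79 to 13.1 CPM (median 6.67) with HDM, where 6 of 10 libraries lay above all PBS libraries (log2FC 1.03 ± 0.23, adjusted p = 1.0e-04). Only Cd8a and Gzmb were called, both higher, against 12.1% of all genes, so the 10 genes were called at a share near the background. Nkg7 (0.70), Gzmk (0.69) and Prf1 (0.46) passed the test as higher, and Klrd1 (-0.56) and Gzma (-0.50) as lower. Both calls lay at the limit of the fold change: edgeR's quasi-likelihood test called neither and DESeq2 called 1, Cd8a was 0.88 with the block of library codes as a term, which also took Gzmb under the limit, and Gzmb was 0.98 without the libraries with thymocyte genes.

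HDM parenchyma at 3 weeks split the genes more clearly. The receptor gene Klrd1 was 18.3 to 29.2 CPM (median 21.5) with PBS and 7.66 to 12.8 CPM (median 10.3) with HDM, a fall with no overlap (log2FC -1.20 ± 0.13, adjusted p = 3.7e-11). Gzma was 126.4 to 173.1 CPM (median 150.2) with PBS and 60.9 to 116.1 CPM (median 78.4) with HDM, also with no overlap (log2FC -0.99 ± 0.21, adjusted p = 4.9e-05). How many of all genes had no overlap was not counted. Cd8a rose from a median of 8.81 CPM (5.19 to 15.4) to 21.1 CPM (12.7 to 26.1), with 7 of 10 HDM libraries higher than any PBS library (log2FC 1.11 ± 0.20, adjusted p = 2.9e-06). Cd8a was the call among higher genes, against 14.5% of all genes, and Klrd1 the call among lower genes, against 15.1%, so again the calls were no more frequent than over all genes. Below the fold limit, Gzmk (1.00), Gzmb (0.80) and Nkg7 (0.59) passed as higher and Ncr1 (-0.83) and Eomes (-0.43) as lower, and Gzmk was 1.09 without the libraries nearer the other tissue. Prf1 gave 0.11 (95% interval -0.24 to 0.47). A different HDM effect in airway than in parenchyma was called for 0 of the 10 genes with limma-voom, against 2.22% of all genes, with 3 at an unadjusted p under 0.05 and 0 called by edgeR or DESeq2. Klrd1 passed that test, and its fall was smaller in airway by 0.64 ± 0.20 (adjusted p = 0.022).

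The same libraries held more transcripts of T cells and of B cells. Of 10 T cell receptor complex genes, 9 were called higher in each tissue, and their summed level in parenchyma was 125.3 to 175.9 CPM (median 153.8) with PBS and 266.8 to 515.7 CPM (median 422.9) with HDM. The median log2FC of that list was 1.30 in airway and 1.39 in parenchyma, beside -0.07 and -0.13 over all genes, and that of the 10 cytotoxic genes was 0.45 and 0.29. Cd4, the co-receptor of helper T cells, had a log2FC of 2.36 in airway and 3.03 in parenchyma. Of 5 B cell genes, 3 and 2 were called higher. Of 8 death receptor ligands and effector cytokines, 6 were called higher in each tissue, led in parenchyma by Tnf (3.99), Ccl4 (3.59) and Ccl3 (3.45), which macrophages make as well. Among 7 further granzyme genes 2 were tested, and they split: Gzmc was 3.67 and Gzmm, a granzyme of NK cells, -1.30 in parenchyma. The part of T cells, B cells and macrophages in the levels of the cytotoxic genes was not tested.

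**Figure D2:**
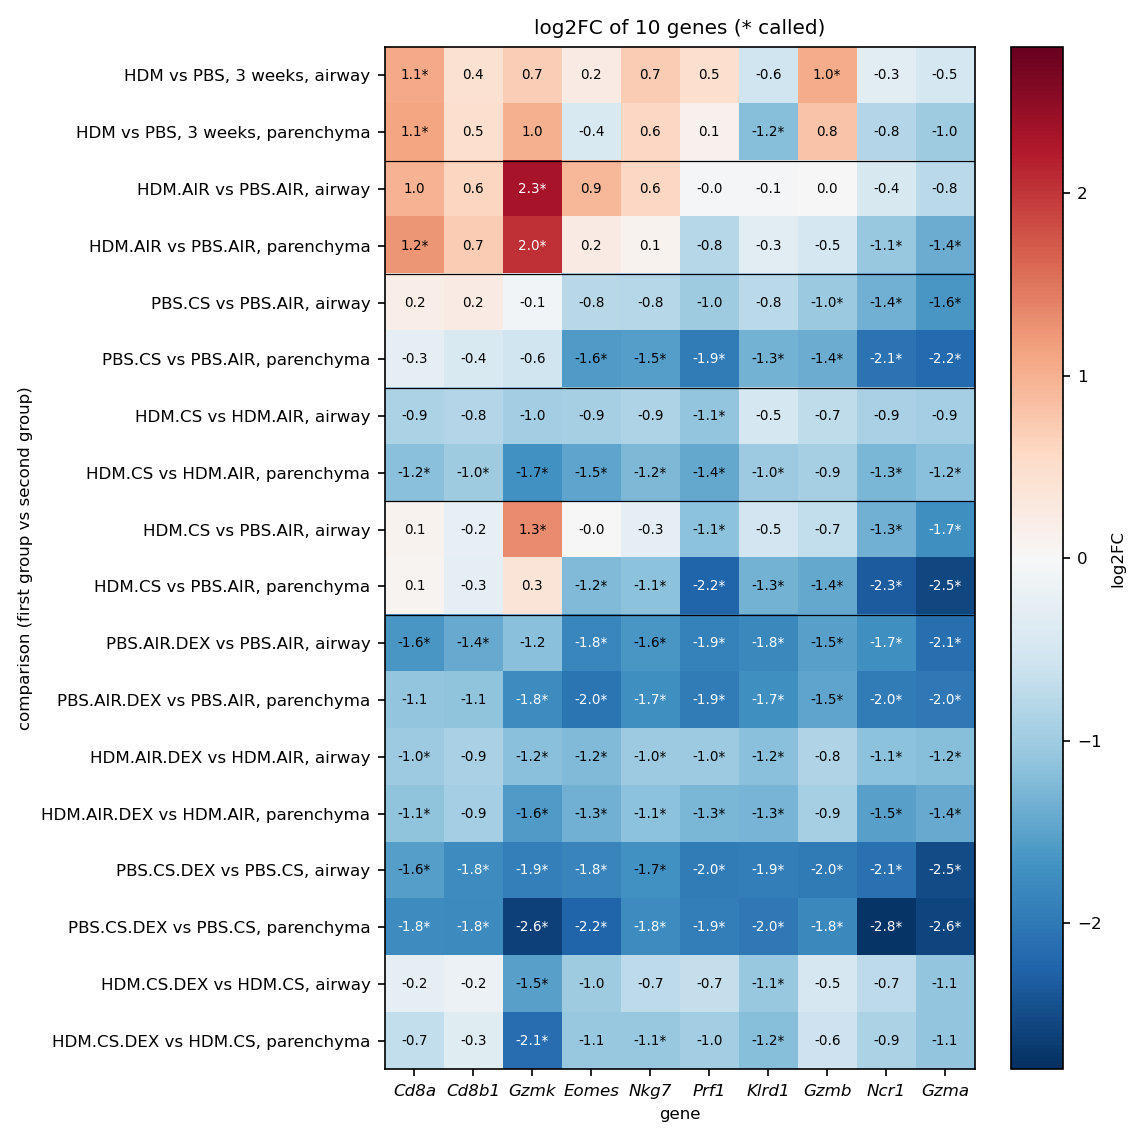
log2FC of the 10 genes (columns) in 18 comparisons (rows, airway and parenchyma of each), red for higher and blue for lower, with an asterisk where the gene was called. HDM rows hold both colours, while rows of CS in PBS mice and rows of DEX are blue for Gzma, Ncr1 and Prf1.

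After 11 weeks of HDM, granzyme K transcript was the most raised of the 10. In airway, Gzmk was 0.0978 to 0.816 CPM (median 0.43) in PBS.AIR and 1.46 to 2.44 CPM (median 1.78) in HDM.AIR libraries. Every HDM.AIR library lay above every PBS.AIR library, and the log2FC was 2.30 ± 0.33 (adjusted p = 1.0e-09). It was the only call, against 10.6% of all genes called higher. Cd8a (0.97), Eomes (0.94) and Nkg7 (0.59) passed the test as higher and Gzma (-0.76) as lower, and without the libraries with thymocyte genes Gzma was -1.08 and called. Eomes ranged from 1.22 to 4.17 CPM with PBS.AIR and from 3.03 to 6.11 CPM with HDM.AIR, and 8 of 10 HDM.AIR libraries lay above all PBS.AIR libraries. Gzmb gave 0.01 (95% interval -0.43 to 0.45) and Prf1 -0.04 (-0.52 to 0.43).

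HDM.AIR parenchyma showed rises and falls side by side. Gzmk rose from a median of 0.437 CPM (0.32 to 1.06) to 2 CPM (0.958 to 3.91), with 9 of 10 libraries above all PBS.AIR libraries (log2FC 2.05 ± 0.32, adjusted p = 1.0e-08). Cd8a rose from 4.98 CPM (3.61 to 6.22) to 10.3 CPM (7.02 to 19.7) with no overlap (log2FC 1.24 ± 0.36, adjusted p = 0.0015). These 2 were called higher, against 13.0% of all genes. Gzma fell from 79.8 CPM (57.7 to 150.8) to 30.3 CPM (18 to 52.9), with no overlap (log2FC -1.38 ± 0.28, adjusted p = 8.4e-06). Over all genes, such lack of overlap was not counted. Ncr1 fell from 25.6 CPM (17.1 to 41.6) to 10.8 CPM (7.19 to 18.1), with 8 of 10 libraries below all PBS.AIR libraries (log2FC -1.06 ± 0.23, adjusted p = 3.3e-05). Gzma and Ncr1 were called lower, against 6.12% of all genes, and Prf1 (-0.80) and Gzmb (-0.49) passed as lower. Library codes run in blocks of 20 that each hold 1 library per group at 11 weeks, and what a block stands for is not given in the sources used here. Within these blocks Gzmk was higher in 10 of 10 and Ncr1 lower in 9. Cd8a was higher and Gzma lower in all 10, which had to be so because their groups did not overlap. The summed level of the T cell receptor complex genes was 103.7 to 135.5 CPM (median 108.5) in PBS.AIR and 185.1 to 365.5 CPM (median 250.8) in HDM.AIR parenchyma, and 8 of the 10 were called higher. Asked whether HDM acted differently in the tissues, limma-voom called 0 of the 10 genes, against 7.97% of all genes, with 2 at an unadjusted p under 0.05 and 0 called by edgeR or DESeq2.

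The HDM effect differed between 11 and 3 weeks for 3 granule genes. Gzmb rose at 3 weeks in both tissues and gave 0.01 in airway and -0.49 in parenchyma at 11 weeks. The differences were -1.08 ± 0.31 in airway (adjusted p = 0.005) and -1.41 ± 0.27 in parenchyma (adjusted p = 4.8e-06). Gzmk rose more at 11 weeks in airway, by 1.55 ± 0.44 (adjusted p = 0.0042), and in parenchyma the difference was 0.93 (95% interval 0.09 to 1.76, adjusted p = 0.068). That difference was called with the block of library codes as a term (1.06, adjusted p = 0.028) and without the libraries with thymocyte genes (1.06, adjusted p = 0.045). Prf1 differed by -1.05 ± 0.29 in parenchyma (adjusted p = 0.0021), and by -0.96 without the libraries with thymocyte genes. In airway 3.04% of all genes were called with a higher and 3.03% with a lower effect at 11 weeks, and in parenchyma 4.06% with a lower effect. Klrd1 (0.77) and Nkg7 (-0.62) passed this test in parenchyma below the fold limit. The Cd8a difference was -0.14 in airway (95% interval -0.93 to 0.65) and 0.00 in parenchyma (-0.85 to 0.86). The 2 times also differ in the schedule of HDM, which cannot be told apart from time.

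Cigarette smoke alone lowered Gzma, Gzmb, Prf1, Nkg7, Klrd1, Ncr1 and Eomes in parenchyma, and the CD8 chains and Gzmk were not shown to change. The comparison of PBS.CS with PBS.AIR isolates smoke from allergen, and it uses the same PBS.AIR libraries as the HDM.AIR comparison. Gzma fell from 79.8 CPM (57.7 to 150.8) to 20.4 CPM (9.43 to 47.2), a log2FC of -2.17 ± 0.30 (adjusted p = 1.2e-09). Ncr1 fell from 25.6 CPM (17.1 to 41.6) to 6.17 CPM (3.19 to 12.4), a log2FC of -2.06 ± 0.28 (adjusted p = 3.6e-10). For Prf1 the fall was from 12.6 CPM (8.66 to 20.2) to 3.13 CPM (1.56 to 5.95), a log2FC of -1.95 ± 0.26 (adjusted p = 1.7e-10). In all 3 genes each smoke library lay below each air library. Nkg7 fell from 14.9 CPM (11 to 20.8) to 4.54 CPM (3.4 to 8.84) and Gzmb from 6.48 CPM (4.86 to 9.93) to 2.62 CPM (1.79 to 3.34), again with no overlap (log2FC -1.54 ± 0.24 and -1.38 ± 0.22). Of all genes tested, 3.28% had each smoke library below each air library. Eomes (-1.59 ± 0.32) and Klrd1 (-1.33 ± 0.22) fell with 9 of 10 libraries below all PBS.AIR libraries. In all, 7 of the 10 genes were called lower, against 1.12% of all genes. In all 10 blocks of library codes each of these 7 genes was lower with smoke. This had to be so for Gzma, Ncr1, Prf1, Nkg7 and Gzmb, whose groups did not overlap.

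The 3 genes that did not pass after smoke in parenchyma were Cd8a (-0.26, 95% interval -1.09 to 0.56), Cd8b1 (-0.42, -1.22 to 0.37) and Gzmk (-0.55, -1.35 to 0.25). These intervals still hold falls of more than 2-fold. Cd8a was 2.36 to 6.34 CPM (median 3.82) in smoke and 3.61 to 6.22 CPM (median 4.98) in air libraries. Among genes of neighbouring functions, 0 of 10 T cell receptor complex genes passed the test (median log2FC -0.07, Cd3e 0.05), and their summed level was 77.5 to 162.6 CPM (median 108.2) after smoke. Of 16 NK receptors and adaptors, 6 were called lower, led by the receptor genes Klre1 (-2.23), Klrc1 (-1.70) and Klri2 (-1.68), and 1 higher. That 1, singled out after its values were seen, was Tyrobp (1.04 ± 0.13, adjusted p = 1.9e-11), an adaptor that myeloid cells also make, at 70.4 to 112.5 CPM (median 89.7) in air and 146.9 to 304.4 CPM (median 185.4) in smoke libraries. The summed level of the 16 genes after smoke was 190.7 to 366.5 CPM (median 238.1) beside 139.3 to 209.7 CPM (median 169.5) in air. Tyrobp was by far the largest part of that sum in both groups, so the sum does not show a rise of the NK receptor genes. Klrb1b (0.88) passed as higher below the fold limit. Tbx21, the T-box factor related to Eomes, was -1.67 and S1pr5, a receptor that lets NK cells leave tissue, -1.93. Foxp3, the factor of regulatory T cells, was 1.09. Of 5 B cell genes 0 passed the test, and of 7 mast cell genes 2 were called lower.

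In airway, Gzma, Gzmb, Prf1, Nkg7, Klrd1 and Ncr1 also passed as lower after smoke, while Eomes (-0.78, 95% interval -1.38 to -0.17, adjusted p = 0.081) and Gzmk (-0.08, -0.88 to 0.72) did not pass. Gzma fell from 43.1 CPM (19.7 to 77) to 14.8 CPM (3.4 to 32.5), and 8 of 10 smoke libraries lay below all PBS.AIR libraries (log2FC -1.64 ± 0.32, adjusted p = 4.9e-05). Ncr1 fell from 14.1 CPM (7.84 to 20) to 5.37 CPM (2.04 to 10.7), with 8 of 10 libraries below (log2FC -1.35 ± 0.29, adjusted p = 2.9e-04). Gzmb was called as well (-1.03 ± 0.25, adjusted p = 0.0017), which makes 3 genes lower against 1.06% of all genes. Without the libraries with thymocyte genes 5 were called, Prf1 (-1.30) and Nkg7 (-1.02) added, while edgeR and DESeq2 gave -0.99 for Gzmb and called Prf1 (-1.03) in its place. Cd8a gave 0.19 (95% interval -0.46 to 0.85). The smoke effect was not shown to differ between tissues: limma-voom called 0 of the 10 genes, against 0.904% of all genes, with 2 at an unadjusted p under 0.05, Prf1 (0.96) and Nkg7 (0.74), and 0 called by edgeR or DESeq2.

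**Figure D3:**
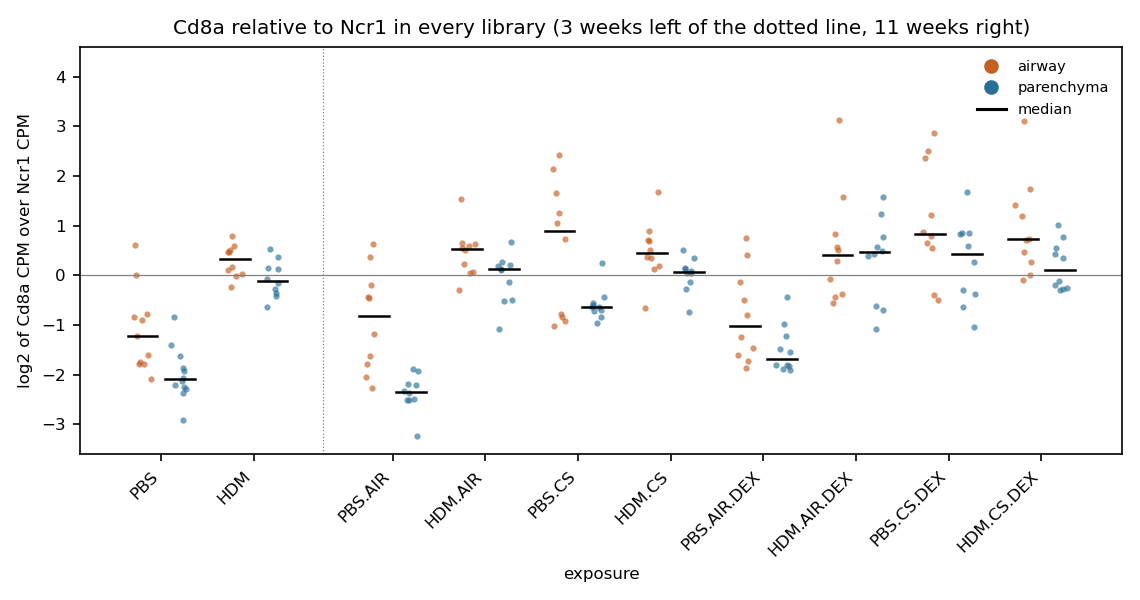
log2 of Cd8a CPM over Ncr1 CPM (0.1 CPM added to each) in each library by group, airway in orange and parenchyma in blue, with a bar at the median. In parenchyma the medians were -2.09 for PBS at 3 weeks and -2.35 for PBS.AIR at 11 weeks, and higher in the HDM and CS groups.

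The ratio of Cd8a to Ncr1 within a library does not depend on sequencing depth, and set the HDM and CS groups apart from controls in parenchyma, while ranges overlapped in airway. In parenchyma at 3 weeks log2 of that ratio was -2.92 to -0.84 (median -2.09) with PBS and -0.64 to 0.54 (median -0.11) with HDM. At 11 weeks it was -3.23 to -1.88 (median -2.35) in PBS.AIR, -1.08 to 0.67 (median 0.12) in HDM.AIR, -0.96 to 0.25 (median -0.64) in PBS.CS and -0.73 to 0.51 (median 0.06) in HDM.CS. None of the exposed libraries of these groups overlapped the PBS.AIR range. With DEX alone it was -1.91 to -0.44 (median -1.68), which touched the PBS.AIR range. In airway the range was -2.09 to 0.62 with PBS and -0.23 to 0.79 with HDM at 3 weeks. At 11 weeks the airway ratio was -2.27 to 0.64 (median -0.82) in PBS.AIR, -0.30 to 1.53 (median 0.53) in HDM.AIR, -1.02 to 2.42 (median 0.89) in PBS.CS and -0.65 to 1.67 (median 0.45) in HDM.CS. A change in this ratio shows unequal change of the 2 transcripts and not which of them changed.

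HDM and smoke together were set against the same PBS.AIR libraries, and gave falls in both tissues and a rise of Gzmk in airway. In parenchyma 7 genes were called lower, against 2.47% of all genes, with Gzma at -2.54 ± 0.32, Ncr1 at -2.33 ± 0.29 and Prf1 at -2.24 ± 0.27 at the front. Gzma was 9.4 to 21.8 CPM (median 14.3), Ncr1 3.48 to 7.43 CPM (median 4.65) and Prf1 1.82 to 3.83 CPM (median 2.37), each below all PBS.AIR libraries. The share of all genes that lay below in this way was not counted. Cd8a gave 0.08 (95% interval -0.71 to 0.87). In airway Gzmk rose to 0.442 to 2.71 CPM (median 0.897, log2FC 1.32 ± 0.35, adjusted p = 8.7e-04), the 1 gene called higher, against 7.33% of all genes. Gzma (-1.71 ± 0.32), Ncr1 (-1.34 ± 0.29) and Prf1 (-1.15 ± 0.27) were called lower there, against 5.82%.

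Adding smoke to HDM, HDM.CS against HDM.AIR, lowered all 10 genes in parenchyma. They all passed the test, and 9 were called, against 3.46% of all genes, with Gzmb at -0.94 below the fold limit. Gzmk fell from 2 CPM (0.958 to 3.91) to 0.653 CPM (0.121 to 2.7), with 7 of 10 libraries below all HDM.AIR libraries (log2FC -1.70 ± 0.30, adjusted p = 4.5e-06). Eomes fell from 4.21 CPM (3.26 to 4.87) to 1.53 CPM (0.686 to 2.59) with no overlap (log2FC -1.47 ± 0.30, adjusted p = 5.5e-05), and Prf1 from 6.2 CPM (4.86 to 10.4) to 2.37 CPM (1.82 to 3.83), also with none (log2FC -1.43 ± 0.29). Lack of overlap was not counted over all genes here. Cd8a (-1.16 ± 0.35) and Cd8b1 (-1.0 ± 0.37) were among the calls here. Cd8b1 lay at the limit: it did not pass with edgeR (adjusted p = 0.067) or DESeq2 (adjusted p = 0.055), and without the libraries with thymocyte genes it was -0.97 and Klrd1 -0.99, which ends both calls. Of the T cell receptor complex genes, 8 of 10 passed as lower and 0 were called, and the summed level was 144.2 to 184.1 CPM (median 158.9) in HDM.CS parenchyma. In airway 8 genes passed as lower and Prf1 was called (-1.10 ± 0.28, adjusted p = 0.0022), against 1.97% of all genes.

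Whether the smoke effect differs with HDM was tested as an interaction of HDM by CS. With limma-voom 0 of the 10 genes were called in either tissue, against 5.17% of all genes in airway and 10.5% in parenchyma, with 2 genes at an unadjusted p under 0.05 in each and 0 called by edgeR or DESeq2. The unadjusted ones were Cd8a (-1.07, 95% interval -1.95 to -0.19) and Cd8b1 (-1.06, -1.98 to -0.14) in airway and Gzma (1.01, 0.14 to 1.87) and Gzmk (-1.15, -2.14 to -0.15) in parenchyma. Other settings did call some of them. Gzma in parenchyma was called with the block of library codes as a term (1.08, adjusted p = 0.0085), with all groups in 1 fit (1.05, adjusted p = 0.042), with library quality weights (1.09, adjusted p = 0.013), with genes required to reach 10 CPM in 9 libraries (1.01, adjusted p = 0.034) and without the libraries with thymocyte genes (1.06, adjusted p = 0.044). Library quality weights also called Gzmk there (-1.44, adjusted p = 0.0052) and Cd8a in airway (-1.16, adjusted p = 0.033). The filter of 10 CPM called Cd8a (-1.15, adjusted p = 0.022) and Cd8b1 (-1.13, adjusted p = 0.028) in airway.

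Dexamethasone lowered nearly the whole set in mice given PBS and air. In parenchyma each DEX library lay below each PBS.AIR library for 8 genes, as for 2.30% of all genes tested. Gzma fell from 79.8 CPM (57.7 to 150.8) to 22.6 CPM (6.9 to 53.7, log2FC -2.0 ± 0.30, adjusted p = 2.8e-08). Eomes fell from 3.85 CPM (2.32 to 4.71) to 1.15 CPM (0.176 to 1.95, log2FC -2.05 ± 0.35, adjusted p = 1.2e-06), and Prf1 from 12.6 CPM (8.66 to 20.2) to 3.64 CPM (0.914 to 7.03, log2FC -1.95 ± 0.26, adjusted p = 7.0e-10). Ncr1 (-1.96), Gzmk (-1.77), Nkg7 (-1.72), Klrd1 (-1.71) and Gzmb (-1.47) were the other 5 of the 8 called, against 2.14% of all genes. The CD8 chains had similar values with more spread and did not pass, with Cd8a at -1.11 (95% interval -2.03 to -0.19, adjusted p = 0.073) and Cd8b1 at -1.12 (-1.99 to -0.24, adjusted p = 0.057). With library quality weights both were called (-1.13 each, adjusted p = 0.0084 and 0.0045), as they were with each tissue in its own fit, and with the block of library codes as a term Cd8b1 was called (-1.04, adjusted p = 0.049). Cd8a was 0.809 to 4.24 CPM (median 2.34) with DEX and 3.61 to 6.22 CPM (median 4.98) without, and 7 of 10 DEX libraries lay below all the others. Within each of the 10 blocks of library codes all 10 genes were lower with DEX, which had to be so for the 8 genes without overlap.

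In airway DEX lowered 9 genes, against 1.85% of all genes. Gzma fell from 43.1 CPM (19.7 to 77) to 10.8 CPM (3.12 to 20.1, log2FC -2.11 ± 0.34, adjusted p = 1.5e-06), and Klrd1 from 5.79 CPM (4.04 to 8.62) to 1.72 CPM (0.753 to 3.3) with no overlap (log2FC -1.80 ± 0.25, adjusted p = 1.9e-08). Cd8a (-1.62 ± 0.43, adjusted p = 0.0039) and Cd8b1 (-1.41 ± 0.41, adjusted p = 0.01) were called here, although 1 DEX library reached 9.8 CPM of Cd8a beside a median of 1.61 CPM. Cd8b1 did not pass with edgeR (-1.12, adjusted p = 0.059). Gzmk gave -1.17 (95% interval -2.07 to -0.28, adjusted p = 0.066), and was called by DESeq2 (-1.14, adjusted p = 0.042), which called all 10, and with the block of library codes as a term (-1.19, adjusted p = 0.026). Other lymphocyte transcripts moved in the same libraries. Of 10 T cell receptor complex genes, 6 were called lower in airway and 4 in parenchyma, and of 5 B cell genes, 4 in each. The summed T cell receptor level in parenchyma was 48.1 to 93.5 CPM (median 70.9) with DEX and 103.7 to 135.5 CPM (median 108.5) without. Of 16 NK receptors and adaptors, 10 were called lower in each tissue, with Klre1 at -2.05 and Klrg1 at -1.87 in airway. Of 7 mast cell genes 0 were called in airway and 1 in parenchyma. How far the cells that make these transcripts took part in the fall of the 10 genes was not tested.

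The fall with DEX was also present in mice exposed to HDM, and larger in value in mice exposed to smoke alone. In HDM.AIR mice 8 genes were called lower in each tissue, against 5.07% of all genes in airway and 5.40% in parenchyma, and Cd8b1 and Gzmb passed below the fold limit in both. In airway edgeR and DESeq2 called 4 of them. Several airway calls lay at the limit: without the libraries nearer the other tissue Prf1 and Nkg7 were -0.93 each, without the libraries with thymocyte genes Cd8a was -1.0 and Nkg7 -0.99, and with the block of library codes as a term Cd8a was -0.97 and Prf1 -0.99, each then not called. Log2FC were between -1.24 and -0.85 in airway and between -1.58 and -0.94 in parenchyma, where Gzmk fell from 2 CPM (0.958 to 3.91) to 0.64 CPM (0.264 to 1.95). In PBS.CS mice all 10 genes were called lower in each tissue, against 2.29% of all genes in airway and 2.39% in parenchyma. The CD8 chains rested on the tool in airway, where edgeR and DESeq2 called 8 genes. Cd8a was -1.55 with limma-voom, -0.93 with edgeR and -0.92 with DESeq2 (adjusted p = 0.12 in both), and Cd8b1 was -1.77, -0.80 and -0.79 (adjusted p = 0.23 in both). In parenchyma neither passed with genes required to reach 10 CPM in 9 libraries (adjusted p = 0.11 and 0.057). Ncr1 fell from 6.17 CPM (3.19 to 12.4) to 1.04 CPM (0 to 6.09) in parenchyma (log2FC -2.75 ± 0.51, adjusted p = 2.2e-05), and Gzma from 14.8 CPM (3.4 to 32.5) to 1.76 CPM (0.604 to 7.71) in airway (log2FC -2.51 ± 0.54, adjusted p = 3.2e-04). Of the PBS.CS.DEX parenchyma libraries, 3 held no count of Gzmk, which allows up to 0.0914 to 0.117 CPM at 3 counts, and 1 of those 3 held none of Ncr1 or Eomes, which allows up to 0.117 CPM. Cd8a ranged from 0.0778 to 3.91 CPM in that group and from 0.407 to 23.5 CPM in PBS.CS.DEX airway. In HDM.CS mice, 2 genes were called in airway, Gzmk (-1.51 ± 0.36) and Klrd1 (-1.07 ± 0.25), against 1.93% of all genes. Klrd1 was -0.96 with edgeR and -0.94 with DESeq2, and Gzma was called with the block of library codes as a term (-1.0, adjusted p = 0.016). In parenchyma there were 3, Gzmk (-2.14 ± 0.46), Klrd1 (-1.20 ± 0.29) and Nkg7 (-1.06 ± 0.30), against 1.92%, and Nkg7 was -0.94 with edgeR and -0.93 with DESeq2. Whether the DEX effect differs between PBS.CS mice and mice of the other exposures was not tested.

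The DEX effect was not shown to differ between HDM.AIR and PBS.AIR mice. As an interaction, limma-voom called 0 of the 10 genes in either tissue, against 1.26% of all genes in airway and 2.12% in parenchyma, with 1 gene (Prf1 in airway, 0.87, 95% interval 0.05 to 1.69) and 0 genes at an unadjusted p under 0.05 and 0 called by edgeR or DESeq2. Library quality weights called Prf1 in airway (1.23, adjusted p = 0.049). The values were near or above 0 for each gene, from -0.01 to 0.92 in airway and from -0.01 to 0.71 in parenchyma.

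Differences between HDM and PBS were still present under DEX. In airway, HDM.AIR.DEX against PBS.AIR.DEX called 5 genes higher, against 7.95% of all genes: Gzmk (2.28 ± 0.42), Cd8a (1.57 ± 0.43), Eomes (1.52 ± 0.37), Nkg7 (1.19 ± 0.29) and Cd8b1 (1.12 ± 0.43). Cd8b1 did not pass with edgeR (0.72) or DESeq2 (0.70, adjusted p = 0.15 in both). Gzmk was 0.26 to 3.6 CPM (median 0.794) with HDM and 0.0327 to 0.413 CPM (median 0.176) with PBS, and 8 of 10 HDM libraries exceeded every PBS library. In parenchyma Gzmk (2.24 ± 0.46) and Cd8a (1.23 ± 0.47) were called higher, against 8.54%. Gzma (-0.80, adjusted p = 0.061) and Ncr1 (-0.62, adjusted p = 0.16) did not pass there, with 95% intervals of -1.5 to -0.10 and -1.33 to 0.08.

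Ordered by median level over the 8 exposures at 11 weeks, most neighbouring groups were not apart. Of 140 neighbouring pairs over the 10 genes and 2 tissues, 8 stood apart in their mean ± SD on the log2 scale and the others overlapped. Those apart included PBS.AIR at the top of Gzma, Prf1 and Ncr1 in parenchyma, HDM.AIR at the top of Cd8a in parenchyma, and HDM.AIR at the top of Gzmk and Eomes in airway. For Ncr1 in parenchyma the order ran from PBS.AIR (25.6 CPM) through HDM.AIR (10.8), PBS.AIR.DEX (7.65), PBS.CS (6.17), HDM.CS (4.65), HDM.AIR.DEX (3.76) and HDM.CS.DEX (2.72) to PBS.CS.DEX (1.04 CPM). For Gzmk in parenchyma it ran from HDM.AIR (2 CPM) through HDM.CS (0.653), HDM.AIR.DEX (0.64), PBS.AIR (0.437), PBS.CS (0.282), PBS.AIR.DEX (0.186) and HDM.CS.DEX (0.116) to PBS.CS.DEX (0.0379 CPM).

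**Figure D4:**
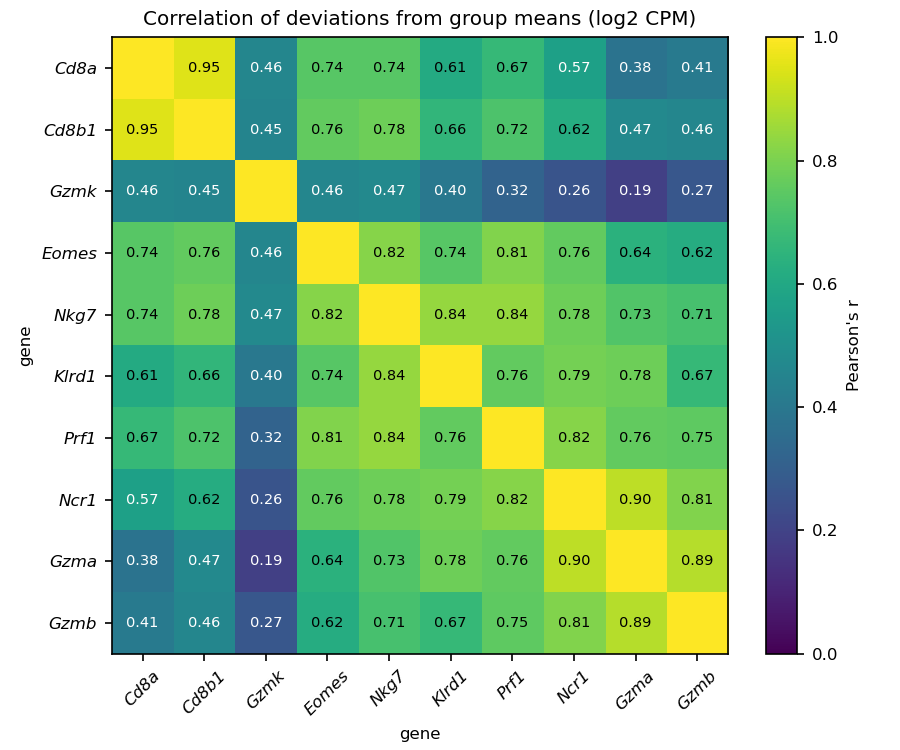
Pearson correlation of the 10 genes with each other over all libraries of both times, each gene taken as its deviation from the mean of its group (log2 CPM). Cd8a and Cd8b1 form a pair at 0.95, Gzma, Gzmb and Ncr1 lie at 0.81 to 0.90, and Gzmk is at 0.19 to 0.47 with every other gene.

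Among libraries of the same group, the CD8 chains varied together, and so did Gzma, Gzmb and Ncr1. Over all libraries of both times, as deviations from their group means, Cd8a and Cd8b1 had a Pearson correlation of 0.95, Gzma and Ncr1 of 0.90, Gzma and Gzmb of 0.89, and Nkg7 and Prf1 of 0.84, whereas Cd8a and Gzma had 0.38. By tissue the last value was 0.20 over the airway and 0.69 over the parenchyma libraries, and Cd8b1 with Gzma had 0.28 and 0.78 and Cd8a with Ncr1 0.45 and 0.78. Gzmk had 0.19 to 0.47 with the other genes, at levels of few counts. Cd8a followed other lymphocyte genes over all libraries. It had 0.81 for Cd3e, a chain of the T cell receptor complex, 0.79 for the B cell gene Cd79a and 0.84 for Ccr7, a receptor of naive lymphocytes. Gzma had 0.21, 0.49 and 0.53 with these 3. In airway, Cd8a had 0.87, 0.82 and 0.89 with them, and Gzma 0.09, 0.19 and 0.33. In parenchyma, Cd8a had 0.67, 0.77 and 0.72 and Gzma 0.48, 0.79 and 0.84, so there Gzma was not below Cd8a for Cd79a and Ccr7. Of all genes past the filter, those most like Cd8a were Cd8b1 (0.95), Ms4a4b (0.91) and Lck (0.90). Those most like Gzma were Ncr1 (0.90), Gzmb (0.89) and Klre1 (0.82), those most like Ncr1 were Gzma (0.90), Klri2 (0.88) and Klrk1 (0.84), and those most like Nkg7 were Ctsw (0.85), Klrd1 (0.84) and Prf1 (0.84). For Eomes they were Fcmr (0.83), Ms4a4b (0.83) and H2-Ob (0.82). The values for Gzmk were lower, with Cd69 and Gimap7 at 0.49 and P2ry10 at 0.48. These correlations are descriptions, since libraries may share a mouse and share the dissection and the scaling. Differences between blocks of library codes, which were larger for Gzma and Ncr1 than for Cd8a, were also not removed. Their part in the correlations was not tested.

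In airway, the library with the highest Cd8a of a group was first in the summed level of the T cell receptor complex genes in 9 of 10 groups and first in that of the B cell genes in 7, and first in Ncr1 in 2. In parenchyma it was first in 6, 3 and 6 of 10 groups. In the PBS.AIR airway group library X65 held 25.7 CPM of Cd8a beside a median of 6.31, and it ranked first of 10 in the summed level of the 5 B cell genes (318.1 CPM, median 114.1) and of the 10 T cell receptor complex genes (327.7 CPM, median 100.9), but number 4 in Ncr1 (16.5 CPM, median 14.1). Library X161 of PBS airway at 3 weeks held 20.3 CPM of Cd8a (median 6.06) with 404.3 CPM of B cell and 279.4 CPM of T cell receptor genes, both the highest of 11, and was number 8 in Ncr1. Library X75 of PBS.CS.DEX airway, with 23.5 CPM of Cd8a (median 2.3), was first in both the T cell receptor genes (242.4 CPM, median 47.1) and Ncr1 (4.47 CPM, median 1.2). Library X103 of HDM airway at 3 weeks, with 25.6 CPM of Cd8a (median 15), was first in Ncr1 (18.3 CPM, median 14.1) and number 7 in B cell genes. The part of such libraries in the airway values of Cd8a was not tested.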

How the data were processed

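RNA was measured by 100 bp single-read RNA-seq of airway and parenchyma. The submitters' processing notes name bcl2fastq 2.20.0.422, STAR 2.5.1b (mm10), RSEM 1.2.31 and kallisto 0.44.0, and the study's methods the M21 annotation. The authors deposited estimated counts per gene, not scaled for depth. Which program made the table and whether strand was used is not given in the sources used here, and neither is the DEX dose. Reads of genes with close copies may be shared out, and the reference strain is not Balb/C, which touches NK receptor genes. Of non-zero values, 20.3% were not whole (0.0493% of those of the 10 genes), and values were rounded. Identifiers were matched without version to GENCODE M21 symbols (42462 of 43346).

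Genes needed the CPM equivalent of 10 counts in at least 9 libraries. TMM (edgeR 4.0.16) and limma-voom (limma 3.58.1, R 4.3.3) were fitted with 1 mean per group, to 17381 genes at 3 weeks, 18250 at 11 weeks and 18528 over all libraries for differences between times, with Benjamini-Hochberg adjustment over all genes tested. Calls needed an adjusted p under 0.05 and a log2FC past 1 or -1, and 95% intervals come from the SE. CPM are TMM-scaled. No pair of libraries was a duplicate, and tests cover the spread between libraries of a group. The 10 genes and all lists were chosen with earlier results of these data known. All 10 genes were named, at most 3 called genes per list by size, a few set lineage genes, and the 3 genes most like a member. Scripts were tested on simulated data. As alternatives, the quasi-likelihood test of edgeR, DESeq2 1.42.0 and its size factors, other filters, other sets of groups in the fit, library quality weights, unrounded counts and, chosen after seeing the data, 2 sets of libraries left out and the block of library codes as a term were tried.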

Additional observations from a re-analysis of the deposited data

Results flagged for a closer look

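In groups of 10 libraries, the highest or lowest library of a gene was compared with the spread of the others by Dixon's criterion. It stood apart in 9 of 180 sets of gene and group, and chance alone gives about 1 in 20. Cd8b1 reached 21 CPM in library X65 of PBS.AIR airway (median 3.86), the library with the highest Cd8a. Gzma reached 50.4 CPM in library X109 of HDM.AIR airway (median 20.5), whose tissue markers lay nearer to parenchyma. Gzmk reached 0.315 CPM in library X76 of PBS.CS.DEX parenchyma (median 0.0379), Nkg7 12.6 CPM in X18 of HDM.CS parenchyma (median 5.75) and Eomes 5.71 CPM in X11 of HDM.AIR.DEX airway (median 1.96). Lowest values stood apart for Ncr1 in X177 of HDM.CS airway (2.02 CPM, median 5.74), for Eomes in X64 of HDM parenchyma at 3 weeks (1.87 CPM, median 3.59), and in X167 of PBS.AIR.DEX airway for both Ncr1 (1.19 CPM, median 3.88) and Eomes (0.104 CPM, median 0.764).

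The HDM effect at 11 weeks less that at 3 weeks, tested over all libraries with limma-voom, was past the threshold for Gzmb in airway (-1.08, adjusted p = 0.005) and in parenchyma (-1.41, adjusted p = 4.8e-06), for Gzmk in airway (1.55, adjusted p = 0.0042) and for Prf1 in parenchyma (-1.05, adjusted p = 0.0021).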

How the results depend on the processing

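Counts of the 10 genes called moved by over 1.5 times in 39 of 365 combinations of comparison and alternative. Over the single values of the genes 42 gained and 56 lost a call. Among values called in either fit, or passing the test in the main fit, 0 changed sign. Other changes of sign were not counted. The labels give no replicate numbers that groups share, so pairing was tried only through the blocks of library codes. With genes required to reach 10 CPM in 9 libraries, 6 of the 10 were tested at 11 weeks and 8 over all libraries, and counts were: in airway HDM.AIR 0 (of 1), DEX in HDM.AIR 5 (8), in PBS.CS 6 (10) and in HDM.CS 0 (2), HDM under DEX 3 (5), HDM by CS 2 (0) and 11 less 3 weeks 1 (2); in parenchyma CS 4 (7), HDM.CS against PBS.AIR 4 (7), HDM by CS 1 (0), DEX in PBS.AIR 4 (8), in HDM.AIR 5 (8), in PBS.CS 4 (10) and in HDM.CS 1 (3), HDM under DEX 0 (2) and 11 less 3 weeks 1 (2). edgeR and DESeq2 gave 0 and 1 (of 2) for HDM airway at 3 weeks, 4 each (8) for DEX in HDM.AIR airway and 1 each (2) for DEX in HDM.CS airway. Library quality weights gave 1 (2) for HDM airway at 3 weeks, 0 (1) for the PBS.AIR tissue difference, 3 (1) for HDM.AIR airway, 0 (1) for HDM.CS against HDM.AIR airway, 1 and 2 (0) for HDM by CS in airway and parenchyma, 1 (0) for DEX by HDM airway and 1 (3) for DEX in HDM.CS parenchyma. All groups in 1 fit gave 2 (1) for the PBS.AIR tissue difference and 1 (0) for HDM by CS parenchyma. The block of codes as a term gave 0 (2) for HDM airway at 3 weeks and 1 (0) for HDM by CS parenchyma. Without libraries with thymocyte genes counts were 1 (2) for HDM airway at 3 weeks, 0 (1) for the PBS.AIR tissue difference, 2 (1) for HDM.AIR airway, 5 (3) for CS airway and 1 (0) for HDM by CS parenchyma. The cause was not tested, apart from the fewer genes tested under the stricter filter. DESeq2 size factors in limma-voom, unrounded counts, each tissue in its own fit, no filter and leaving out the libraries nearer the other tissue moved no count by over 1.5 times. Fits of each tissue alone gave no value for differences between tissues, and the difference between times was fitted over all groups throughout. Gzmk rests on few counts, and differences of that gene between low groups were limited by depth.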

Other observations

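Library codes run in blocks of 20 that hold the groups in turn, and the labels do not say what a block is. At 11 weeks the libraries of the last 4 blocks (64) had lower Gzma than those of the first 6 (96), by 1.01 on the log2 scale after the group means were removed, and lower Ncr1 by 0.91, in 16 of 16 groups for each gene. For Cd8a the difference was 0.44 and for Gzmk 0.15, lower in 11 of 16 groups each. No label marks this cut, which was not part of the planned comparisons, so the differences are descriptions only. Within single blocks, Gzmk and Eomes were higher in HDM.AIR than in PBS.AIR airway in 10 of 10, which had to be so for Gzmk, whose groups did not overlap.

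Consecutive codes hold an airway and a parenchyma library of the same exposure. Over 101 such pairs, the deviations from the group means had a Pearson correlation of 0.82 for Ncr1, 0.81 for Gzma and 0.69 for Gzmb, and of 0.28 for Cd8a, 0.31 for Cd8b1 and 0.36 for Gzmk. Whether such a pair is 1 mouse is not given in the sources used here. Both libraries of a pair also lie in the same block of library codes, and differences between blocks were not removed. The part of the block and of a shared mouse cannot be told apart here.

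Genes around cytotoxic function also changed with HDM. Il21, a cytokine of helper T cells that acts on CD8 T cells and NK cells, had log2FC of 6.18 and 6.94 in airway and parenchyma at 3 weeks and 5.15 and 5.58 at 11 weeks. Slamf7, a surface receptor of NK cells and activated lymphocytes, had 2.22, 3.05, 2.40 and 2.61. Ifng, the interferon made by cytotoxic and helper lymphocytes, had 2.77, 2.91, 2.25 and 2.16. Each was called in all 4 comparisons. The NK receptor genes Klrd1 and Ncr1 went the other way in HDM parenchyma, where Klrd1 was called lower at 3 weeks and Ncr1 at 11 weeks. After smoke alone the cytokine genes Ccl3 (2.73 in airway, 3.30 in parenchyma), Tnf (1.08 and 2.53) and Ccl4 (1.57 and 2.03) were called higher while Gzma and Ncr1 were called lower. Of the 8 death receptor ligands and effector cytokines, 2 were called lower in smoke parenchyma, Fasl (-1.59), the ligand of the death receptor Fas, and the chemokine gene Ccl5 (-1.5), and Ifng was -0.85 (adjusted p = 0.15). With DEX in PBS.AIR mice, Ccl5 was -2.36 and -2.17, S1pr5 -2.05 and -2.49, and Clec9a, a receptor of cross-presenting dendritic cells, -1.84 and -1.78.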
